A study of Oryctolagus cuniculus with 10 samples.

Results

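The 90 rabbit genes described here had less RNA in cells grown on tissue culture plastic than in cells grown on each of 4 decellularized extracellular matrices (dECMs), and were followed into the cartilage pellets made from those cells. The genes were chosen from the cell libraries by a rule on log2(RPKM + 1), where RPKM is a read count scaled to gene length and to the library total. A member averaged 1 RPKM or more across the 10 libraries, and its lowest dECM cell library lay above the plastic cell library by at least 1. This gap was met by 95 of the 12244 genes that passed the filter on the mean, a share of 0.776%, and the table lists 29587 genes in all. Of the 95, 5 were left out because pellet culture moved them by at least 2 on this scale in all 5 substrates, 1 upwards and 4 downwards. The lower level on plastic in the cells is therefore what the rule asked for, and it is given below as a description without a test. All 90 passed the filter on low values because the rule contains it.

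The cells were infrapatellar fat pad stem cells of New Zealand White rabbits, cultured either on plastic or on dECM that human cells had laid down. The human cells were adipose stem cells (ASC), dermal fibroblasts (DF), synovium-derived stem cells (SDSC) or urine stem cells (USC). Each of the 5 substrates gave 1 library of expanded cells and 1 library of pellets kept for 21 days in chondrogenic induction medium. No group was replicated, the rabbits' age is not given in the sources used here, and nothing says how many animals or matrix donors stand behind a library. Between 14021696 and 19828548 reads were counted in genes per library.

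The infrapatellar fat pad lies inside the knee joint next to the synovium, and stem cells taken from it can form cartilage matrix. Cells expanded on plastic gradually lose this capacity, and dECM is used as a substrate because it offers adhesion sites, bound growth factors and a softer surface that plastic lacks. In pellet culture cells are packed together without any substrate, so the matrix or plastic they were grown on is no longer beneath them. Genes carry Ensembl identifiers in the table, without symbols, and 0 of these identifiers matched the name table used here. Members are therefore described by their behaviour, with few identifiers, and neither the labelled cell type nor any pathway was checked against marker genes. No sequence is shown for the same reason.

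In the cells, the 90 genes were spread over a wide range of abundance. Their median was 4.70 RPKM on plastic, against 46.1 RPKM on ASC dECM, 56.6 RPKM on DF dECM, 19.8 RPKM on SDSC dECM and 43.6 RPKM on USC dECM. On the log2 scale the median difference from plastic was 2.47 for ASC, 2.67 for DF, 1.56 for SDSC and 2.34 for USC dECM. SDSC dECM cells were the nearest to plastic of the 4 matrices in 66 of the 90 genes, whereas SDSC was the lowest dECM in 30.7% of all tested genes. DF was the lowest dECM in 3 genes (20.9% of all), ASC in 9 (27.2%) and USC in 12 (20.7%). The highest dECM was ASC in 36 genes (40.0%, against 20.8% of all), USC in 26 (28.9%, against 34.9%), DF in 22 (24.4%, against 21.1%) and SDSC in 6 (6.67%, against 23.1%).

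The size of the gap between plastic and the lowest dECM was below 1.5 in 49 genes, at least 2 in 22 and at least 3 in 5. Just inside the threshold, 1 gene with a gap of 1.0014 stood at 3.13 RPKM on plastic and 7.28 RPKM on SDSC dECM, its lowest matrix. Just outside, 1 gene with a gap of 0.9925 stood at 16.7 RPKM on plastic and 34.2 RPKM on SDSC dECM. Neighbouring genes on either side of the threshold thus had nearly the same gap.

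A few members were among the most abundant RNAs of the dECM cells. Together the 90 genes held 0.514% of all RPKM in plastic cells, but 10.8% on ASC, 9.03% on DF, 6.24% on USC and 2.14% on SDSC dECM. The 4 members with the highest single values accounted for 8.34 percentage points on ASC dECM and 0.207 on plastic. The other 86 genes held 0.307% on plastic and 1.13% to 2.51% on the dECMs, a direction that the rule fixed for each gene. In pellets the 90 genes held 0.829% after plastic, 1.72% after ASC, 3.70% after DF, 2.28% after SDSC and 1.24% after USC dECM.

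The reads behind the plastic cell values varied widely. In the plastic cell library 52 of the 90 had at least 100 reads, 12 had fewer than 10 and 3 had none. The 95% Poisson intervals of plastic and of the dECM with the lowest interval overlapped in 8 genes. Of those 8, 7 were among the 9 members shorter than 150 bases (51 to 133 bases), which had at most 15 reads on plastic. Genes this short made up 10% of the members and 1.96% of all tested genes. In 0 of the 9 did the plastic pellet lie below all 4 dECM pellets, and in 1 it was listed at 0 together with the ASC, DF and USC pellets. The rule chose genes with a gap in these same libraries, so the intervals describe precision and are no test; they cover counting error only, since nothing in the sources used here mentions molecular identifiers.

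**Figure D1:**
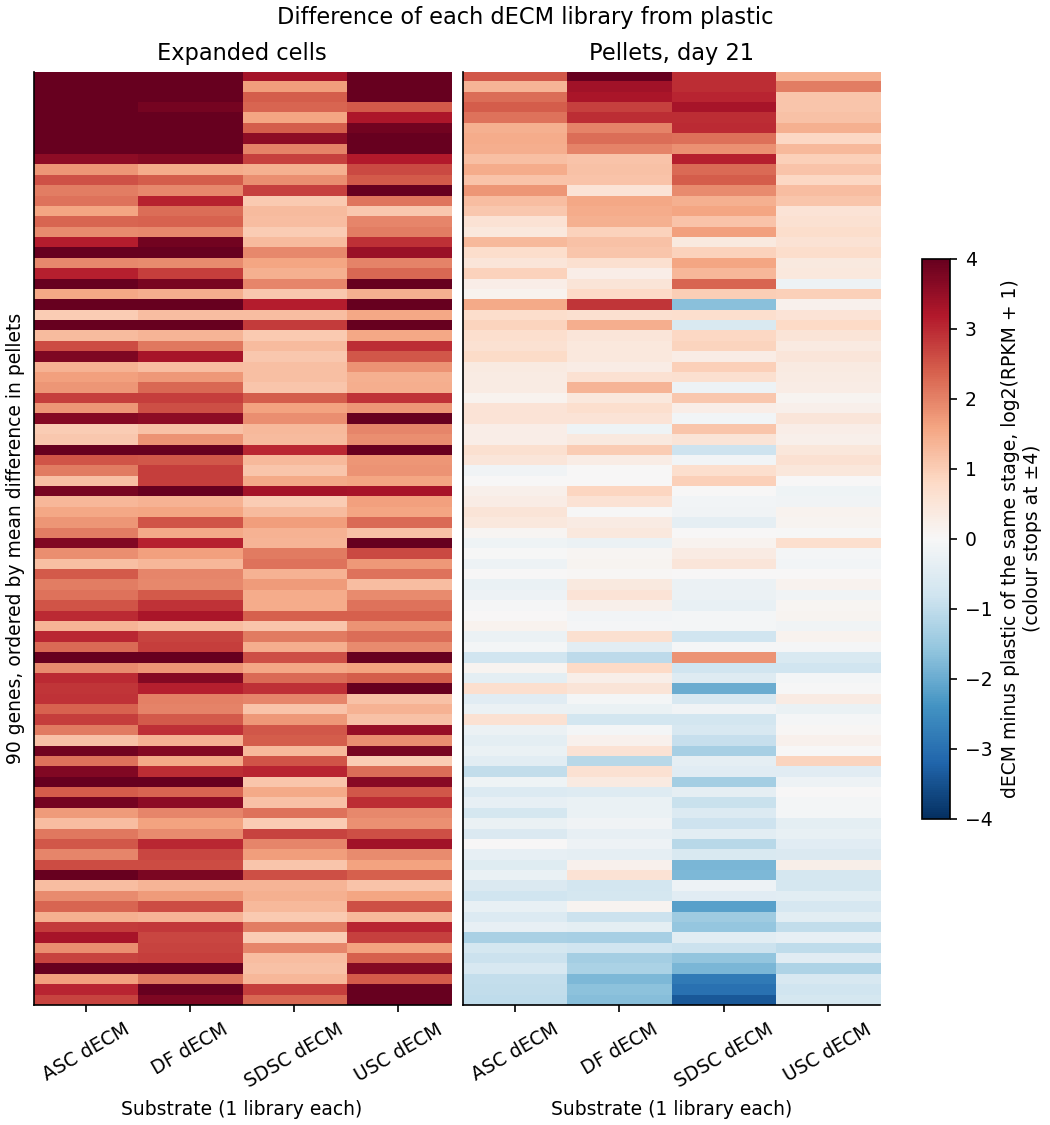
Each row is 1 of the 90 genes and each column 1 dECM library, coloured by its difference from the plastic library of the same stage in log2(RPKM + 1); rows follow the mean difference in pellets. All cell columns are red by the rule, while in pellets 30 genes were above plastic in all 4 columns and 18 below it in all 4.

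Pellets were then examined to ask whether the level on plastic in the cells was carried through chondrogenic culture. The choice used pellet values only in the mean over 10 libraries and in leaving out 5 genes, not in any comparison of pellets with plastic. For most members the plastic library was no longer the lowest. The plastic pellet lay below all 4 dECM pellets in 30 of the 90 genes (33.3%), against 14.8% of all tested genes. It lay above all 4 in 18 (20%), against 37.8% of all tested genes. In the other 42 it lay among the dECM pellets or was equal to the lowest or highest of them. The median of the mean dECM minus plastic difference was 0.11 in pellets over the 90 genes, compared with 2.20 in the cells, and it was 0.044 without the DF pellet. Over all 12244 tested genes that median in pellets was -0.10.

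With median-of-ratios scaling, which moved the median of all tested genes to 0.004, the background share for plastic below all 4 dECM pellets was 24.5%, and 36 of 99 members chosen again on that scale (36.4%) met it. The excess of members over the background was thus smaller under that scaling. For a gap of at least 1 the count depended less on scaling, with 10 of 99 members (10.1%) against 0.294% of all genes.

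A gap of at least 1 persisted in 9 of the 90 genes (10%), against 0.253% of all tested genes. The same 9 made up 29.0% of the 31 tested genes with such a gap in pellets. No member had the plastic pellet above all 4 dECM pellets by at least 1, against 0.049% of all genes. Genes chosen by the mirrored rule, higher on plastic than on every dECM in cells, gave 1 such gap below the dECM pellets among 146 and 0 above them. The members also varied more among pellets in general. The 5 pellet libraries lay within 1 of each other in 39 members (43.3%), against 90.1% of all tested genes. Members had a median of 33.4 RPKM over the 10 libraries, against 13.4 RPKM for all tested genes. That mean includes the dECM cell values that the rule required to lie above plastic. In pellets the members' medians ran from 16.0 (plastic) to 21.9 RPKM (DF), against 13.0 (SDSC) to 15.0 RPKM (plastic) for all tested genes. The mirrored genes were much lower there, with medians from 1.46 (USC) to 2.09 RPKM (SDSC), so they are not a matched contrast to the members. The log2(RPKM + 1) scale compresses differences of low genes. The part of abundance and of variability in these counts was not tested.

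**Figure D2:**
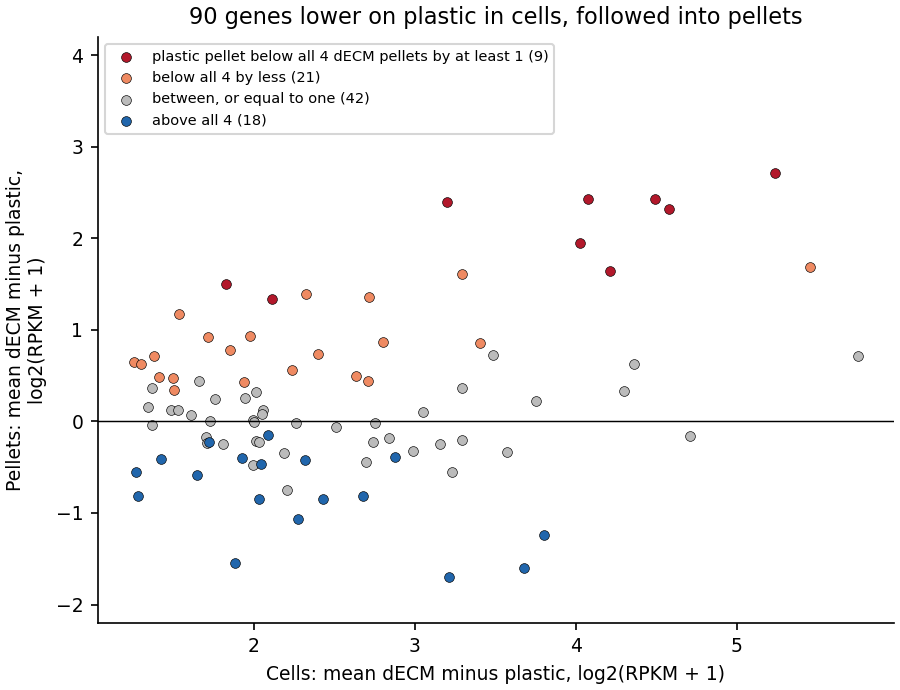
Mean dECM minus plastic difference of each of the 90 genes in cells (horizontal) and in pellets (vertical), both in log2(RPKM + 1), coloured by where the plastic pellet lay. The 9 genes with a gap of at least 1 in pellets reach mean pellet differences of 1.33 to 2.71, and the 18 genes with plastic above all dECM pellets lie below 0.

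In the limma test of the 4 dECM pellets against the plastic pellet, 0 of 12244 genes passed an adjusted p of 0.05, and the smallest adjusted p among members was 0.67. The unadjusted p was under 0.05 in 25 members (27.8%, against 6.44% of all tested genes). Of these, 19 were higher after dECM (21.1%, against 2.52%) and 6 lower (6.67%, against 3.92%). limma-voom on reads recovered from the table also called 0 genes and had 25 members at an unadjusted p under 0.05. That number was 15 when all 10 libraries shared 1 estimate of the spread (898 genes in all). The cell values that chose the members enter that estimate. Without the SDSC pellet the number was 39 (1135 genes), and without the filter on low genes 11, among 1863 of 21536 genes. The plastic pellet is a single library assumed to vary like the dECM pellets, so these p-values measure the spread between matrices and not between cultures or animals. The members' median SE was 0.37, against 0.20 over all genes, and a p above the threshold does not show that plastic and dECM pellets were alike.

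ENSOCUG00000002424 had the largest pellet difference. In cells it stood at 203 RPKM on plastic, 19653 on ASC, 13746 on DF, 2045 on SDSC and 6293 on USC dECM. In pellets it stood at 847 RPKM after plastic, 4718 after ASC, 13816 after DF, 6576 after SDSC and 2218 after USC dECM. Plastic was the lowest library at both stages, and the dECM order changed, with ASC highest in cells and DF highest in pellets. The pellet mean over the dECMs was 6832 ± 4987 RPKM (SD, n = 4), a log2 difference from plastic of 2.71 (SE 0.90, limma adjusted p = 0.67).

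ENSOCUG00000011838 was second. Its cell values were 283 RPKM on plastic, 17792 on ASC, 14192 on DF, 904 on SDSC and 7233 on USC dECM. The pellets held far less, with 95.5 RPKM after plastic, 245 after ASC, 985 after DF, 744 after SDSC and 400 after USC dECM. Plastic again lay below every dECM library of its stage, and on ASC dECM the gene was lower in the pellet than in the cells by 6.18 on the log2 scale. The difference in pellets was 2.43 (SE 0.70, limma adjusted p = 0.67).

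In all 9 genes with a pellet gap of at least 1, SDSC was the lowest dECM in cells, as it was in 73.3% of the 90 members, and in 7 ASC was the highest, as in 40.0% of the members. In pellets the highest library was DF in 5 (31.1% of the members) and SDSC in 4 (27.8%), and USC was the lowest dECM in 8 (28.9%). Their median pellet difference from plastic was 2.96 for SDSC, 2.74 for DF, 1.47 for ASC and 1.17 for USC dECM. The genes were well covered, with at least 211 reads in the plastic pellet, and their lengths ran from 554 to 5559 bases. Between cells and pellets their median change was 1.64 on SDSC dECM and 1.37 on plastic, but -2.19 on ASC, -1.50 on USC and -0.97 on DF dECM. SDSC dECM, nearest to plastic in the cells for these genes, was thus among the highest after pellet culture. Since the 9 were picked on their pellet values, these counts are a description.

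Another of the 9, picked after its values were seen, showed this change of order in full, with 0.423 RPKM in plastic cells, 179 on ASC, 130 on DF, 3.23 on SDSC and 12.5 on USC dECM. Its pellets held 7.69 RPKM after plastic, 38.5 after ASC, 66.5 after DF, 66.8 after SDSC and 18.6 after USC dECM. Plastic was lowest at both stages, while SDSC moved from the lowest matrix to level with DF.

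**Figure D3:**
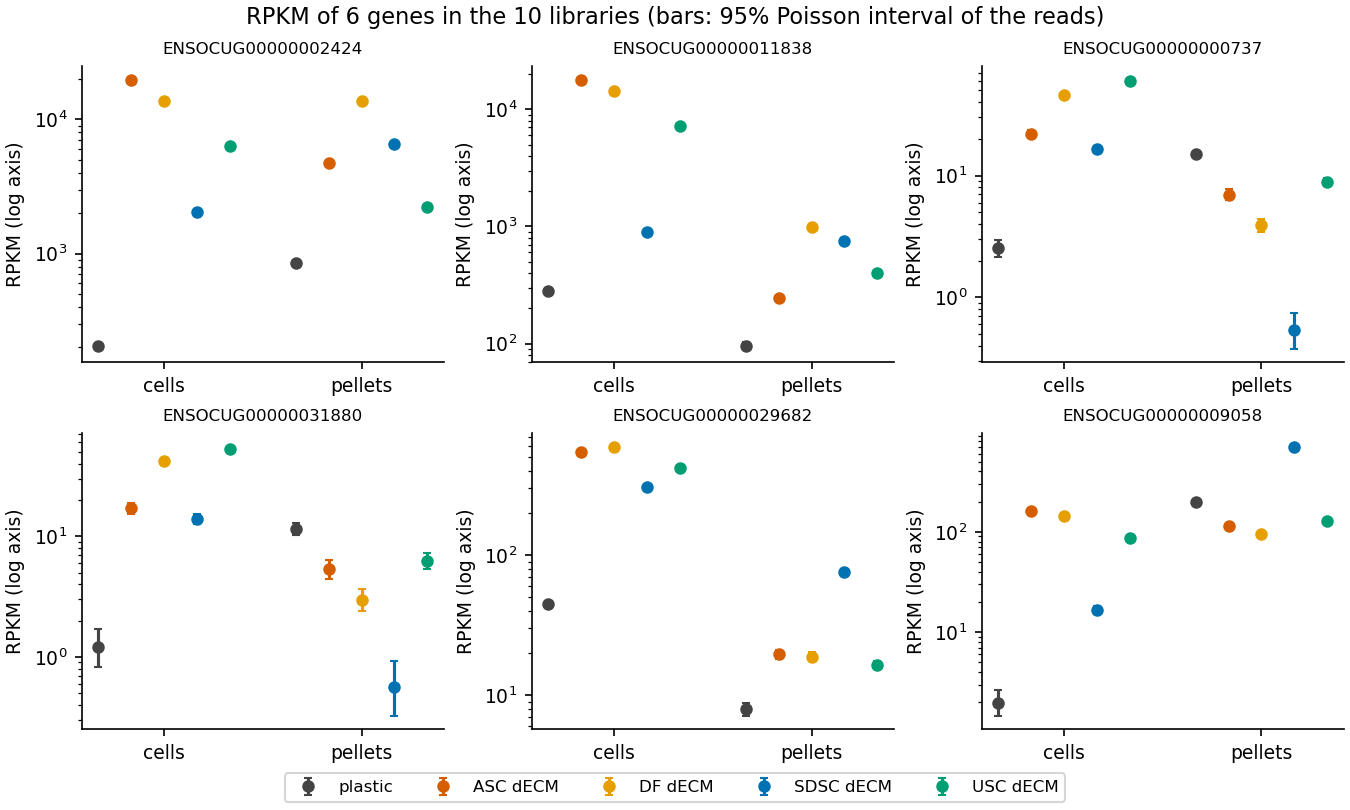
RPKM on a log axis of 6 of the 90 genes in the 5 cell and 5 pellet libraries, 1 point per library, with bars for the 95% Poisson interval of its reads. In the first pair plastic is lowest at both stages, in ENSOCUG00000000737 and ENSOCUG00000031880 it is lowest in cells and highest in pellets, and in the last pair the SDSC pellet is the highest pellet.

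At the other end were the 18 members with the plastic pellet above all 4 dECM pellets, an order that was more frequent among all tested genes (37.8%) than among the members (20%). ENSOCUG00000000737 had the lowest pellet difference. In cells it stood at 2.52 RPKM on plastic, 22.1 on ASC, 46.0 on DF, 16.4 on SDSC and 59.4 on USC dECM. In pellets it stood at 15.0 RPKM after plastic, 6.95 after ASC, 3.90 after DF, 0.54 after SDSC and 8.88 after USC dECM. The pellet difference was -1.70 (SE 0.92, limma adjusted p = 0.67).

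ENSOCUG00000031880 followed the same course. It stood at 1.20 RPKM on plastic and at 17.2 (ASC), 41.8 (DF), 14.0 (SDSC) and 52.6 RPKM (USC) on dECM. Its pellets held 11.5 RPKM after plastic, 5.31 after ASC, 2.99 after DF, 0.569 after SDSC and 6.23 after USC dECM. Its pellet difference was -1.61 (SE 0.77, limma adjusted p = 0.67). Over the 10 libraries each of this pair had its highest correlation among the tested genes with a member, at a Pearson r of 0.994. For each of them 2 tested genes, both members, reached 0.95. Whether these genes share reads through overlap or similar sequence was not tested.

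Over the 18 genes the median dECM minus plastic difference was 2.07 in cells and -0.70 in pellets. The median pellet difference was -0.85 for SDSC, -0.72 for DF, -0.61 for ASC and -0.43 for USC dECM. The SDSC pellet was the lowest of the 5 in 10 of the 18, against 35.6% of the 90 members and 38.6% of all tested genes. Of the 18, 6 had an unadjusted limma p under 0.05 in pellets and none was called. The 18 were picked on these same pellet values, which favours a low p, so this count is a description.

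For the other 4 named genes the most alike profiles differed in kind. ENSOCUG00000011838 was most like another member (r = 0.979), and 11 genes reached 0.95 with it, 3 of them members. ENSOCUG00000002424 (r = 0.958), ENSOCUG00000029682 (r = 0.985) and ENSOCUG00000009058 (r = 0.966) were each most like a gene outside the 90. These correlations run over 10 libraries that share 2 stages, so any gene that changes with stage contributes to them.

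From cells to pellets the members' median change was upwards on plastic and downwards on every dECM. The median pellet minus cell difference over the 90 genes was 0.72 on plastic, -1.54 on ASC, -1.53 on DF, -0.76 on SDSC and -1.36 on USC dECM. Over all tested genes the medians lay between 0.12 and 0.24. The cell values that chose the genes enter these differences, which favours a change towards the other libraries, and they are given without a test.

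Pellets of plastic-grown cells were above their cells by at least 1 in 40 members (44.4%, against 12.3% of all genes) and below by at least 1 in 8 (8.89%, against 7.38%). On ASC dECM the pellet was below the cells by at least 1 in 60 members (66.7%, against 8.13%), on DF in 54 (60.0%, against 7.51%), on USC in 54 (60.0%, against 8.71%) and on SDSC in 39 (43.3%, against 5.56%). SDSC dECM was the matrix with the most members above their cells by at least 1, 14 (15.6%, against 8.57%), compared with 3 on ASC (against 11.9%), 3 on DF (against 13.1%) and 2 on USC dECM (against 10%). A pellet below its cells on all 4 dECMs was seen in 59 members (65.6%, against 22.9%), by at least 1 in 28 (31.1%, against 2.96%), while 1 member was above by at least 1 on all 4 (1.11%, against 4.9%). The plastic pellet was above the plastic cells in 66 members (73.3%, against 63.9%). In 37 members (41.1%, against 3.98%) the pellet was below the cells on all 4 dECMs and above them on plastic.

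Set against the range in cells, the plastic pellet was at or below the plastic cells in 24 members. It lay between the plastic cells and the lowest dECM cells in 41, and at or above the lowest dECM cells in 25. The rule set these cell values apart, which favours a plastic pellet above the plastic cells, so the counts are a description. No share over all genes stands beside them, because only 0.776% of the tested genes had such a gap in cells. In bulk RNA, a change in the share of cells that carry a transcript and a change in transcript per cell cannot be told apart.

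**Figure D4:**
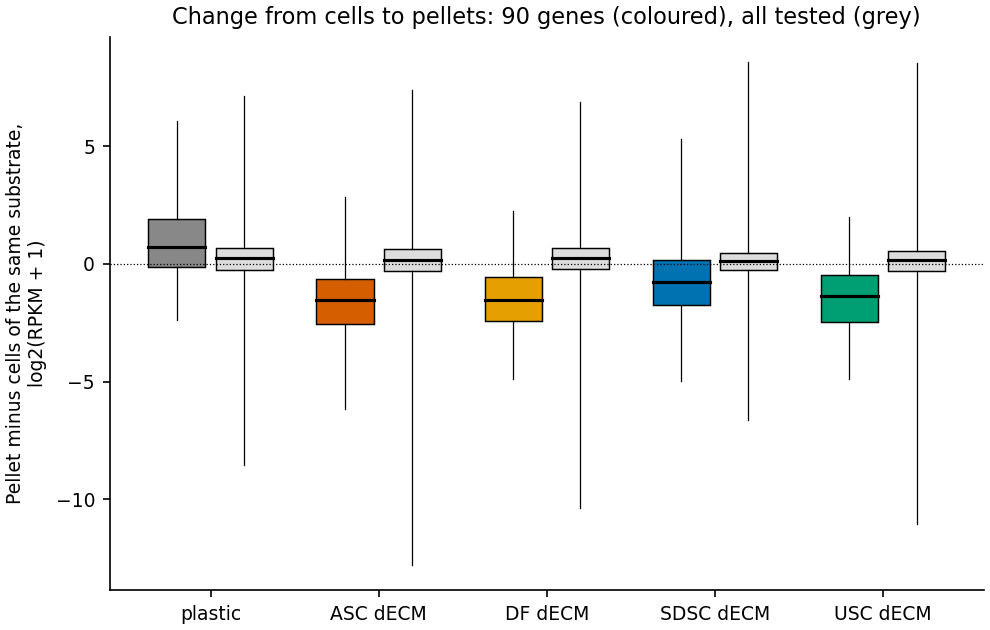
Pellet minus cell difference in log2(RPKM + 1) on each substrate for the 90 genes (coloured) and for all 12244 tested genes (grey); boxes span the quartiles, the line is the median and whiskers reach the lowest and highest gene. The coloured median is 0.72 on plastic and lies between -1.54 and -0.76 on the dECMs.

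The members' differences from the plastic pellet varied between the 4 dECM pellets. Each is a single library, so a difference between matrices cannot be told apart from a difference between libraries. After DF dECM 20 members were above the plastic pellet by at least 1 (22.2%, against 1.54% of all genes) and 8 below (8.89%, against 0.849%). After ASC dECM 16 were above (17.8%, against 1.48%) and 2 below (2.22%, against 0.776%). After USC dECM, the matrix in the series title, 10 were above (11.1%, against 0.792%) and 2 below (2.22%, against 0.449%). After SDSC dECM 22 were above (24.4%, against 2.67%) and 15 below (16.7%, against 2.95%). The counts below plastic after ASC and USC dECM rest on 2 members each. All 4 comparisons share the plastic pellet library. Among the 5 pellets, DF was the highest in 28 members (31.1%, against 21.2%), SDSC in 25 (27.8%, against 22%), ASC in 10 (11.1%, against 10.2%) and USC in 9 (10%, against 8.76%). SDSC was the lowest in 32 (35.6%, against 38.6%), DF in 9 (10%, against 8.9%), ASC in 8 (8.89%, against 23.2%) and USC in 7 (7.78%, against 14.0%). The shares for ASC and USC as the highest, and for SDSC and DF as the lowest, were near those of all genes. The median difference from the plastic pellet was 0.37 for DF, 0.12 for USC, 0.11 for ASC and -0.11 for SDSC.

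**Figure D5:**
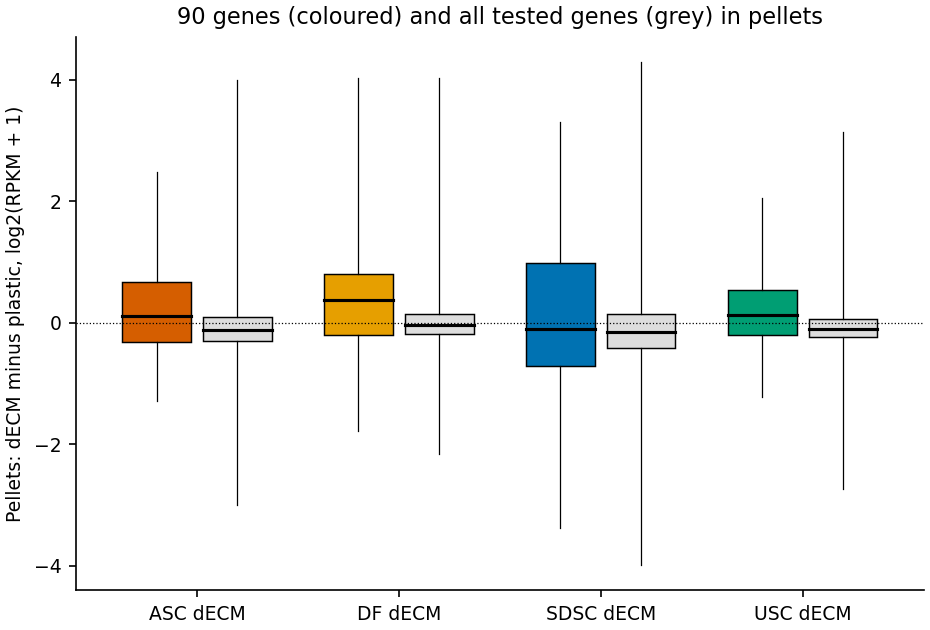
Difference of each dECM pellet from the plastic pellet in log2(RPKM + 1) for the 90 genes (coloured) and all 12244 tested genes (grey); boxes span the quartiles, the line is the median and whiskers reach the lowest and highest gene. The SDSC box of the 90 genes is the widest, from -0.71 to 0.98, and the USC box runs from -0.19 to 0.54.

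Members with larger differences in cells had somewhat larger ones in pellets on DF and ASC dECM. Across the 90 genes the Pearson correlation between the dECM minus plastic difference in cells and in pellets was 0.482 for DF, 0.419 for ASC, 0.212 for USC and 0.068 for SDSC, with Spearman values of 0.293, 0.213, 0.134 and -0.0024. Over all 12244 genes the Pearson values were 0.128, 0.00154, 0.134 and 0.116 in the same order, with Spearman values of -0.0273, -0.108, 0.124 and 0.155. By rank the members were thus close to all genes for USC and below them for SDSC. Genes are not independent replicates, each stage rests on its 1 plastic library, and the rule truncates the cell differences, so these values are descriptions.

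SDSC dECM pellets were also tested against the other 3 dECM pellets, a comparison without the plastic library. Of all tested genes, 2 were called higher (0.0163%) and 4 lower (0.0327%) by limma. Both of the higher genes were members, but ENSOCUG00000029682 was a member only through its SDSC pellet, as given below. They are named because they were the calls and were picked after their values were seen. ENSOCUG00000009058 stood at 199 RPKM in the plastic pellet, 115 after ASC, 95.9 after DF, 698 after SDSC and 129 after USC dECM. The SDSC pellet stood above the other dECM pellets by a log2 difference of 2.63 (SE 0.19, limma adjusted p = 0.0251). Before pellet culture the gene was at 1.98 RPKM on plastic, 163 on ASC, 144 on DF, 16.7 on SDSC and 87.2 on USC dECM, so SDSC was then the lowest matrix.

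ENSOCUG00000029682 stood at 7.95 RPKM in the plastic pellet, 19.6 after ASC, 18.9 after DF, 76.5 after SDSC and 16.5 after USC dECM. The SDSC difference was 2.01 (SE 0.15, limma adjusted p = 0.0261). Its cells held 45.1 RPKM on plastic, 549 on ASC, 591 on DF, 305 on SDSC and 417 on USC dECM, and every pellet was below the cells of its substrate. The pellet minus cell difference was -1.98 on SDSC dECM and -2.37 or lower on every other substrate. With a lower SDSC pellet the gene would have been left out by the rule. Its place among the members is therefore not independent of this call. Both calls set 1 library against 3. Their SE and p rest on the spread between the ASC, DF and USC matrices, not between cultures or animals. Without the ASC pellet neither gene was called (limma, adjusted p = 0.138), and with median-of-ratios scaling neither was (limma, adjusted p = 0.0758).

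The unadjusted p between SDSC and the other dECM pellets was under 0.05 in 41 members (45.6%, against 18.9% of all genes), 16 higher (17.8%, against 6.81%) and 25 lower (27.8%, against 12.0%). All but the 2 called members missed the adjusted threshold. The number of members called ran from 0 without the ASC pellet to 7 without the DF pellet and 15 without the USC pellet. The calls among all 12244 tested genes rose as well, from 0 to 26 and 176 in the same order. With limma-voom on the recovered reads 20 members were called, 9 higher and 11 lower, among 443 of the 12244 genes.

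USC dECM pellets were tested against the other 3 dECM pellets in the same way, and limma called 0 genes. Here too the spread is that between the other 3 matrices, not between cultures or animals. The unadjusted p was under 0.05 in 11 members (12.2%, against 2.25% of all genes), 5 higher (5.56%, against 0.686%) and 6 lower (6.67%, against 1.56%). limma-voom called 0 as well, with 11 members at an unadjusted p under 0.05. With all 10 libraries and 1 shared spread that number was 2 (2.22%) among 256 of the 12244 genes, so the members' excess was not seen there. The cell values that chose the members enter that spread, so this run is not independent of the choice. The number was 18 without the SDSC pellet (670 genes). Without the filter on low genes it was 5 (5.56%) among 1356 of 21536 genes, so the members' excess was not seen there either. The members' differences ran from -1.76 to 1.54, with a median of -0.15 and a median SE of 0.35. USC was the lowest of the 4 dECM pellets in 26 members and the highest in 20, shares of 28.9% and 22.2% against 20.2% and 20.5% of all genes. ENSOCUG00000002424 had the lowest USC difference, -1.76 (SE 0.62, limma adjusted p = 0.9997).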

How the data were processed

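RNA was measured by mRNA sequencing in 10 libraries, 1 per substrate and stage. Per the submitters' processing notes, the authors used Subread and featureCounts with build OryCun2.0; the sources used here give no version, annotation release or strandedness. The deposited values are log2(RPKM + 1) with 0.0001 added, as the values themselves show. Undoing this gave whole reads for all 21536 genes above 0 (deviation at most 9.55e-05), with whole gene lengths and library totals; where reads share a factor, length and reads are understated, and the recovered reads made up at least 99.9887% of the totals. The 12244 genes averaging 1 RPKM or more were tested on log2(RPKM + 1) with limma 3.58.1 (R 4.3.3), with a prior that follows expression, two-sided, with Benjamini-Hochberg adjustment over 12244 genes. The main fits used the 5 pellet libraries alone. The steps were checked on simulated reads with a common spread and, apart from genes changed on purpose, no differences between substrates. That check does not cover the use of different matrices as replicates. Python 3.11.15 did the rest. The members, and the rule that named genes, were set with earlier results of these data known. That rule took the 2 highest and 2 lowest pellet differences among members averaging 5 RPKM or more in pellets; the pair called in the SDSC test was added after its values were seen. The 10 gene lists and the cell type markers could not be used without symbols.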

Additional observations from a re-analysis of the deposited data

Results flagged for a closer look

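ENSOCUG00000009058 and ENSOCUG00000029682 each had an SDSC pellet far above the other 3 dECM pellets, with a gap to the nearest of them of 0.853 and 0.89 of the whole range on the log2 scale. These genes were named because the SDSC pellet differed in the test above, so the gap restates that choice and the usual chance rate of about 1 in 20 does not apply to it. ENSOCUG00000000737 and ENSOCUG00000031880 were higher on all 4 dECMs than on plastic in cells and lower on all 4 in pellets, with mean pellet differences of -1.70 and -1.61. The same order was seen in 18 members (20%), and plastic was above all 4 dECM pellets in 37.8% of all tested genes. The difference between the stages was not tested, because the cell values chose the genes.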

How the results depend on the processing

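The number of genes that met the rule was 319 with a gap of 0.5, 22 with a gap of 2, 153 with a pseudocount of 0.1 RPKM and 48 with 5 RPKM. In pellets the plastic library was below all 4 dECMs in 98 (30.7%), 7 (31.8%), 51 (33.3%) and 17 (35.4%) of these, against 14.8% of all tested genes. It was below by at least 1 in 11 (3.45%), 4 (18.2%), 17 (11.1%) and 5 (10.4%). The shares over all tested genes were 0.253% for both gaps, 0.645% with a pseudocount of 0.1 RPKM and 0.098% with 5 RPKM. With the genes as chosen, leaving out 1 dECM pellet gave 31 to 37 genes with plastic lowest and 9 to 13 with a gap of at least 1. The highest counts came without the SDSC pellet (37 genes, 41.1%) and without the USC pellet (13 genes, 14.4%). The shares over all tested genes rose as well, since plastic then had 1 dECM pellet fewer to lie below. For plastic lowest they were 16.8% to 18.9% (18.5% without SDSC), against 14.8% with all 4 dECM pellets. For a gap of at least 1 they were 0.31% to 0.449% (the highest without USC), against 0.253%. The members' median difference was 0.044 to 0.128, with the lowest median without the DF pellet. The median was 0.026 with a gap of 0.5 and 0.051 with a pseudocount of 5 RPKM. The dECM against plastic test in pellets called 0 genes under each alternative run except without the filter on low genes, where 412 were called, 0 of them members and 387 of them listed at 0 in all 4 dECM pellets. The SDSC test called 107 genes (6 members) with all 10 libraries, where the cell values that chose the members enter the spread. It called 12 genes with a pseudocount of 5 RPKM, 475 without the filter, and 443 (20 members) with limma-voom. It called 0 genes with median-of-ratios scaling, with quantile normalization and with a prior without trend, and between 0 and 176 genes (0 to 15 members) without 1 of the other dECM pellets: 0 without ASC, 26 without DF and 176 without USC. Without the filter ENSOCUG00000009058 was no longer called (limma adjusted p = 0.0681). The USC test called 410 genes without the filter, 401 of them listed at 0 in the other 3 dECM pellets, and 0 under the other alternatives run. The 4 genes named for their pellet difference from plastic kept its direction under all 12 alternatives and were never called. No paired analysis was possible because the tests compare pellets with pellets, with 1 library per substrate and no shared replicate number. Cells and pellets of a substrate were paired only for the pellet minus cell differences, which were not tested because the cell values chose the genes. The plastic library of a stage cannot be left out.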
